A study of Rattus norvegicus with 9 samples.

Results

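Axon guidance ligands and receptors are the secreted and cell-surface proteins by which migrating cells and growing axons are steered, and vascular smooth muscle uses the same proteins. The genes described here are those whose symbol in the deposited table belongs to the semaphorins (Sema3 to Sema7), plexins, neuropilins, ephrins, Eph receptors, netrins, Slits, Robos or the Unc5 name. Of the 26407 rows of the table, 71 matched, with 69 distinct symbols, since Epha10 and Robo4 each stand under 2 identifiers. Of the 71, 40 averaged 1 FPKM or more across the 9 libraries, and these are described with tests. FPKM is a level from fragment counts, corrected for transcript length and library size. Unc50 is among the 40 by its letters alone: it encodes a protein of the secretory pathway and is not a netrin receptor. It is counted but not described further, apart from its level of 53.8 ± 4.37 FPKM in PDGF-NS, 46.2 ± 5.51 in IGF-NS and 46.1 ± 5.58 in control libraries (SD, n = 3 each).

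The cells were S31 cells, primary wild-type smooth muscle cells grown from cardiac microvessels, the donors being Wistar Kyoto males. All of them went without serum for 48 h and then received 25 ng/ml recombinant rat PDGF-BB, 25 ng/ml recombinant human IGF-1, or fresh serum-free medium with no growth factor (control). The medium of all sets held lactalbumin hydrolysate, and growth factors were renewed daily where needed. RNA sequencing gave 3 libraries for each set. The sources disagree on the treated sets: the data columns called PDGF-NS belong to the sample records of IGF-1, harvested at 24 h, and the columns called IGF-NS to the records of PDGF-BB, harvested at 48 h. The sets are therefore called by their columns, PDGF-NS, IGF-NS and control (columns LH-NS, harvested at 24 h), and growth factor and harvest time cannot be told apart in the IGF-NS set. The labels name S31 as the cell line of every library, and the sources do not say whether the 3 libraries of a set came from separate cultures, so a p-value here rests on a spread between libraries that may be technical.

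Library sums ranged over 616765 to 748000 FPKM. Read depth is not given, but the steps between low values put the depth relative to control library 1 at 0.95 to 1.3 in PDGF-NS, 0.73 to 1.2 in IGF-NS and 0.66 to 1 in control libraries. The defining smooth muscle genes Tagln and Cnn1 were present in every set, and the summed level of the 9 smooth muscle markers was 285 to 353 FPKM in PDGF-NS, 505 to 531 in IGF-NS and 2320 to 3320 in control libraries. Tagln made up most of that sum (211, 358 and 2110 FPKM on average in PDGF-NS, IGF-NS and control libraries). Of 8 tested smooth muscle markers 6 fell and 1 rose in PDGF-NS against control, and 6 fell and 0 rose in IGF-NS against control. The marker that rose in PDGF-NS was Des, which encodes desmin (log2 1.30, limma adjusted p = 0.00036), and it fell in IGF-NS (−0.95, adjusted p = 0.0037). The myosin heavy chain gene Myh11 was low in each set, with 0.654, 0.405 and 1.77 FPKM on average in PDGF-NS, IGF-NS and control libraries. Endothelial cells, neurons and glia also use guidance genes. The endothelial markers Cdh5, Kdr, Emcn and Cldn5 were listed at 0 in all 9 libraries, and the 9 endothelial markers summed to 3.9 to 6.45, 1.71 to 4.26 and 7.59 to 9.19 FPKM in PDGF-NS, IGF-NS and control libraries, nearly all of it Erg, which fell in IGF-NS against control (−1.24, adjusted p = 0.0091) and did not pass in PDGF-NS (−0.64, adjusted p = 0.098). The 8 neural and Schwann cell markers used summed to 1.86 to 2.27 FPKM in PDGF-NS, 1.74 to 2.41 in IGF-NS and 0.968 to 1.03 in control libraries, so that both treated sets lay above control. None was tested (0 of 8), S100b averaged 1.17, 0.995 and 0.193 FPKM in the same order, and Sox10 and Snap25 were listed at 0. Cd14 and Cd68 were the 2 tested genes among 7 leukocyte markers, and both rose in PDGF-NS (summed level 43.6 to 89.8 FPKM in PDGF-NS, 22.6 to 30.8 in IGF-NS and 18 to 27 in control libraries), while Ptprc and Aif1 were listed at 0. Most of that sum was Cd14 (59.7, 26.3 and 23.5 FPKM on average). Cd68 varied widely within PDGF-NS (4.3 ± 4.41 FPKM) and was low in IGF-NS and control libraries (0.34 ± 0.385 and 0.208 ± 0.192 FPKM). Pericyte markers, 3 of 5 tested, summed to 284 to 397, 101 to 117 and 64.4 to 87.6 FPKM in the same order of sets, with Rgs5 listed at 0. Of the 3, 2 rose in PDGF-NS and 1 in IGF-NS against control, and 0 fell. Most of the sum was Anpep (187, 22.3 and 7.25 FPKM on average) and Abcc9 (139, 57.5 and 54 FPKM), and Kcnj8 was not called. Fibroblast markers, 6 of 7 tested, summed to 2770 to 3390, 4770 to 6120 and 2740 to 3990 FPKM, with Tcf21 listed at 0. Most of that sum was Col1a1 (2020, 3530 and 2880 FPKM on average), which was not called against control. Of the 6, 5 rose in PDGF-NS and 4 in IGF-NS against control and 0 fell, among them Lum (1060, 1790 and 340 FPKM), Dcn (21.8, 117 and 11.4 FPKM) and Dpt (14, 2.26 and 0.417 FPKM). Cardiomyocyte markers, 1 of 6 tested, summed to 1.35 to 4.55, 8.19 to 19.6 and 10.6 to 22.4 FPKM, with Myh6 listed at 0. Tnnt2, the marker tested, fell in PDGF-NS against control (−2.15, adjusted p = 0.0026). Their part in the results below was not tested.

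Semaphorins are ligands of plexins: the secreted class 3 proteins mostly act through a neuropilin that carries the binding site and a plexin that carries the signal, while most other classes bind plexins directly. Slits are secreted proteins cleaved into active fragments and read by Robo receptors. Netrins attract or repel through DCC, neogenin and the Unc5 receptors. Ephrins are bound to the cell membrane, A ephrins by a lipid anchor and B ephrins by a transmembrane stretch, so that they meet Eph receptor tyrosine kinases on a touching cell and can signal back into their own cell. In vessels, ephrin-B2 marks arteries and is needed in mural cells, and class 3 semaphorins, Slits and netrins affect the migration of smooth muscle and endothelial cells.

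The most abundant guidance gene per kilobase was Unc5b, a netrin receptor, at 173 ± 33.5 FPKM in PDGF-NS, 258 ± 54.4 in IGF-NS and 169 ± 51.2 in control libraries. It was followed by the semaphorin receptor genes Plxnb2 (99.4 ± 6.23, 105 ± 14.8 and 118 ± 17.4 FPKM in the same order) and Nrp2 (75.1 ± 1.97, 44.1 ± 9.27 and 77.3 ± 7.5 FPKM). The 31 matching rows under a mean of 1 FPKM included 11 that were listed at 0 in every library, among them Efnb1, Sema4d, Robo3, Plxnb3 and Unc5d. The members nearest the limit were Sema6d (mean 0.946 FPKM), Epha3 (0.897) and Sema6c (0.433) below it, and Sema4f (1.35), Sema3e (1.55) and Efna3 (1.62) above it. Of the 40 tested members, 1 had a mean under 1 FPKM in any set, Sema6a in control. No tested member was listed at 0 in any library (0 of 40).

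Differences were tested with limma on log2(FPKM + 1) over 11376 genes, and a gene was called at a Benjamini-Hochberg adjusted p under 0.05. The scale understates changes of low genes. Fold changes below are on this scale, with the standard error, unless given as a ratio of mean FPKM. In bulk RNA, fewer cells of a type and less RNA per cell cannot be told apart. Of the 40 members, 22 were called in at least 1 of the 3 comparisons and 18 in none. The matching share of all genes was not computed, so this count is not read as a trait of the members. In PDGF-NS against control 13 were called, 7 higher and 6 lower, which is 32.5% of the members against 31.0% of all genes tested (20.7% higher and 10.2% lower). In IGF-NS against control 12 were called, 10 higher and 2 lower, which is 30% of the members against 24.9% of all genes (17.4% higher and 7.48% lower). Both shares lie near that of all genes. Between PDGF-NS and IGF-NS 17 were called, 6 higher and 11 lower in PDGF-NS, which is 42.5% of the members against 15.9% of all genes (8.33% higher and 7.55% lower). Calls with a log2 fold change of at least 1 in size numbered 9 in PDGF-NS against control (22.5%, against 10.9% of all genes), 7 in IGF-NS against control (17.5%, against 6.93%) and 9 between the treated sets (22.5%, against 6.39%).

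The balance of rises and falls over all genes depended on the scaling. Of all called genes 66.9% were higher in PDGF-NS against control as deposited, but 51.2% under median ratio scaling, and the median log2 fold change of all genes was 0.13 and 0.01. In IGF-NS against control these shares were 69.9% and 48%, with medians of 0.15 and 0.01. Between the treated sets 52.5% were higher as deposited and 33.2% after rescaling to one common sum. Under the 19 alternatives 0 calls of members turned round in direction.

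**Figure D1:**
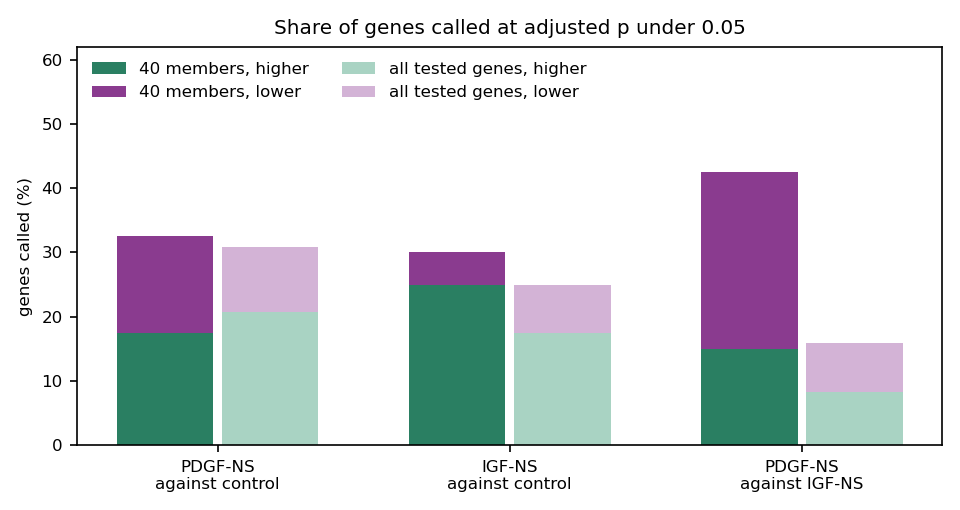
Share of genes called at adjusted p under 0.05 (vertical axis, percent) in each of the 3 comparisons, for the 40 tested guidance genes (dark bars) and for all 11376 genes tested (pale bars), divided into higher (lower part of a bar) and lower (upper part). The bars of members and of all genes are of similar height in both comparisons with control, and the members' bar is the taller one, 42.5% against 15.9%, between the treated sets.

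The median size of the log2 difference between the treated sets, whatever its sign, was 0.56 among the 40 members and 0.25 among all genes. In the comparisons with control it was 0.45 against 0.35 for PDGF-NS and 0.41 against 0.31 for IGF-NS. Libraries of PDGF-NS and IGF-NS did not overlap in 23 of the 40 members, or 57.5%, against 36.3% of all genes tested. Libraries did not overlap in 18 members, or 45%, in PDGF-NS against control (48.6% of all genes) and in 18 in IGF-NS against control (39.0% of all genes). The 2 comparisons with control share their control libraries, so the members' values in them are given side by side. Called higher in both were Robo1, Sema3a and Sema6a, and called lower in both was Epha2. Epha4 and Efnb2 were called lower in PDGF-NS and higher in IGF-NS. Called in PDGF-NS alone were Efna1, Sema4b, Sema5a and Slit2 (higher) and Ntn4, Sema3d and Slit3 (lower). Called in IGF-NS alone were Efna4, Nrp1, Plxna4a, Plxna3 and Unc5c (higher) and Nrp2 (lower). Being called in 1 set alone does not show a difference between the sets, which is the third comparison.

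**Figure D2:**
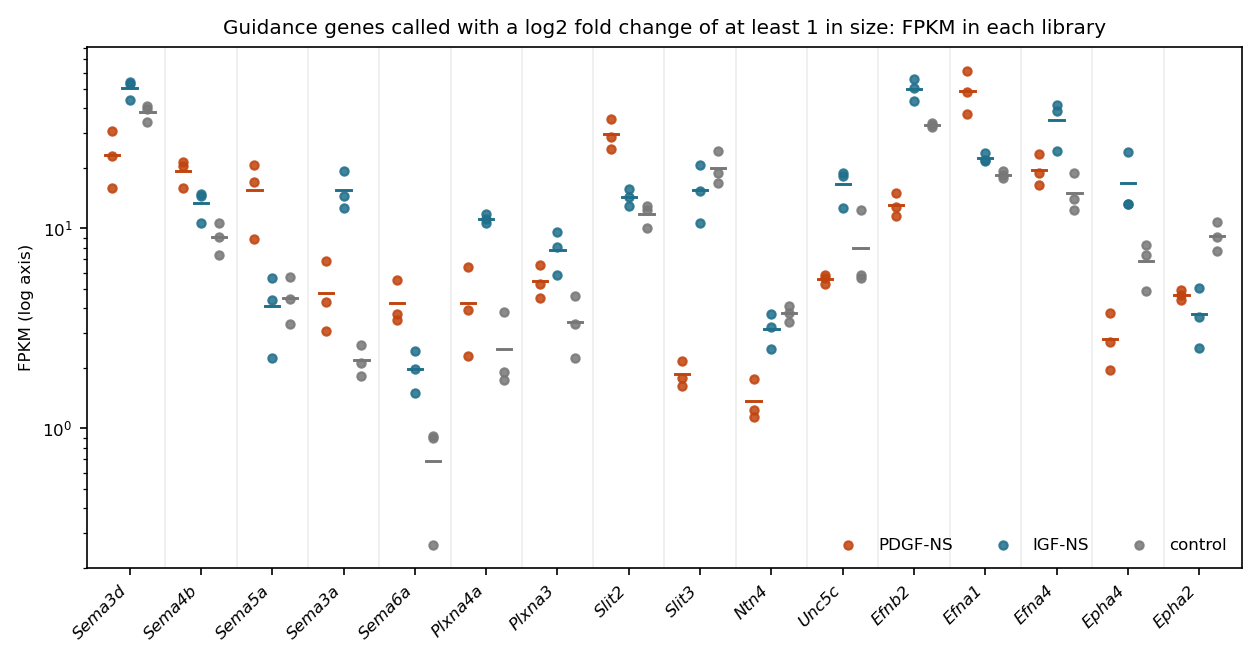
FPKM (vertical axis, log scale) of the 16 guidance genes called in at least 1 comparison with a log2 fold change of at least 1 in size. Each point is a library, the short bar is the mean of 3 libraries, and each gene has PDGF-NS, IGF-NS and control from left to right. The PDGF-NS points of Slit3 lie at 1.63 to 2.17 FPKM, far under the other points of that gene, and the IGF-NS points of Sema3a lie at 12.6 to 19.3 FPKM, above the other sets.

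In PDGF-NS libraries Slit2 rose, to 2.52-fold the control mean, and Slit3 fell. The summed level of both was 31.5 ± 5.15 FPKM in PDGF-NS, 30 ± 5.87 in IGF-NS and 31.8 ± 2.64 in control libraries (SD, n = 3 each). Slit3 (ENSRNOG00000007377) had 1.63, 1.79 and 2.17 FPKM in PDGF-NS, 15.4, 10.7 and 20.8 in IGF-NS and 24.5, 16.8 and 18.9 in control libraries. Every PDGF-NS library lay under every other library, and IGF-NS and control overlapped. Slit3 was 10.8-fold lower in PDGF-NS than in control by the ratio of means, with a log2 fold change of −2.87 ± 0.22 (limma adjusted p = 1.6e-05), and it differed between PDGF-NS and IGF-NS by −2.50 ± 0.22 (adjusted p = 7.4e-05). In IGF-NS against control its log2 fold change was −0.37 ± 0.22 (adjusted p = 0.26).

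Slit2 (ENSRNOG00000003840) had 28.6, 35.4 and 25 FPKM in PDGF-NS, 13, 14.4 and 15.8 in IGF-NS and 10, 12.4 and 12.9 in control libraries. The PDGF-NS libraries were the highest 3, and the IGF-NS libraries also lay just above control, the lowest at 13 against the highest control at 12.9. Its log2 fold change was 1.25 ± 0.16 in PDGF-NS against control (limma adjusted p = 0.00028), 0.98 ± 0.16 in PDGF-NS against IGF-NS (adjusted p = 0.0022) and 0.27 ± 0.16 in IGF-NS against control (adjusted p = 0.24). Slit2 made up 94.6, 95.2 and 92% of the summed FPKM of the pair in PDGF-NS libraries, against 45.9, 57.2 and 43.2% in IGF-NS and 29.1, 42.5 and 40.7% in control libraries. Slit1 was listed at 0 in 8 of 9 libraries, with 0.047 FPKM in PDGF-NS library 3.

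**Figure D3:**
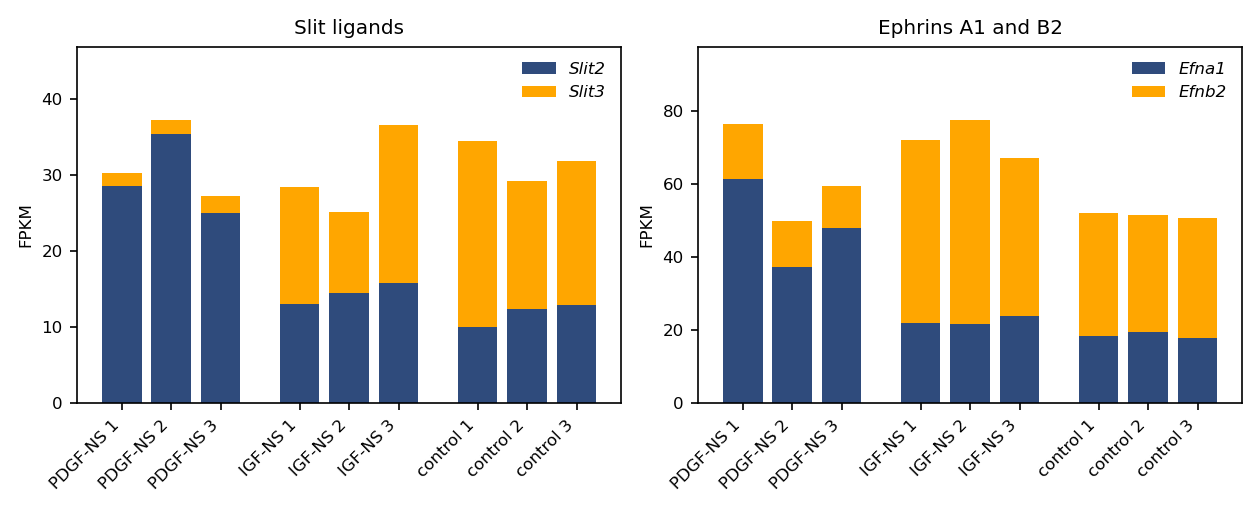
FPKM (vertical axis, from 0) of Slit2 and Slit3 (left) and of Efna1 and Efnb2 (right), stacked in each of the 9 libraries, with PDGF-NS, IGF-NS and control from left to right. In PDGF-NS libraries the Slit bars are nearly all Slit2, 92 to 95.2%, at a total similar to the other sets, and the Efna1 part is larger and the Efnb2 part smaller than in both other sets.

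The Slit receptor Robo1 (ENSRNOG00000029614) rose in both treated sets. It had 24.2, 28.9 and 22.6 FPKM in PDGF-NS, 19.2, 18.9 and 20.5 in IGF-NS and 14.4, 12.7 and 9.9 in control libraries, and the 3 sets did not overlap. Its log2 fold change against control was 0.98 ± 0.15 in PDGF-NS (limma adjusted p = 0.001) and 0.63 ± 0.15 in IGF-NS (adjusted p = 0.014), and between the treated sets it was 0.35 ± 0.15 (adjusted p = 0.16). Robo2, also a Slit receptor but at a lower level, had 3.62, 5.97 and 5.62 FPKM in PDGF-NS, 2.15, 2.71 and 1.68 in IGF-NS and 3.65, 3.28 and 3.34 in control libraries. It was called between the treated sets alone (0.92 ± 0.20, adjusted p = 0.01), and that call ended without PDGF-NS library 3 (adjusted p = 0.054). In IGF-NS against control Robo2 lay at −0.49 (adjusted p = 0.097) and was called lower after median ratio scaling (adjusted p = 0.049) and quantile normalization (0.033). In PDGF-NS against control it lay at 0.43 (adjusted p = 0.12) and was called without PDGF-NS library 1 (0.038). Robo3 and the endothelial Robo4 were listed at 0 in every library.

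In PDGF-NS the A ephrin Efna1 rose and Efnb2, Epha4 and Epha2 fell. In IGF-NS Efna4, Efnb2 and Epha4 rose and Epha2 fell. Efnb2 and Epha4 were the members called in opposite directions in the 2 treated sets. Ephrin-B2 binds mainly EphB receptors and also EphA4, whose gene is the Epha4 of these data.

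Efnb2 (ENSRNOG00000014648), the gene of ephrin-B2 and the B ephrin that was not near 0 in these cells, had 15.1, 12.8 and 11.6 FPKM in PDGF-NS, 50.2, 55.8 and 43.5 in IGF-NS and 33.6, 32.2 and 32.8 in control libraries. The 3 sets were fully separate, with PDGF-NS lowest and IGF-NS highest. Against control its log2 fold change was −1.26 ± 0.13 in PDGF-NS (limma adjusted p = 0.00011) and 0.58 ± 0.13 in IGF-NS (adjusted p = 0.012), and PDGF-NS against IGF-NS gave −1.84 ± 0.13 (adjusted p = 2.5e-05). The rise in IGF-NS was no longer called after median ratio scaling (0.42, adjusted p = 0.074). Efnb1 was listed at 0 in every library and Efnb3 did not exceed 0.0527 FPKM in any.

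Epha4 (ENSRNOG00000013213), which encodes a receptor that binds both A and B ephrins, had 1.96, 3.76 and 2.69 FPKM in PDGF-NS, 24.2, 13.2 and 13.2 in IGF-NS and 8.27, 4.85 and 7.39 in control libraries. These sets did not overlap either, in the same order as for Efnb2. Its log2 fold change was −1.04 ± 0.27 in PDGF-NS against control (limma adjusted p = 0.016), 1.16 ± 0.27 in IGF-NS against control (adjusted p = 0.013) and −2.20 ± 0.27 in PDGF-NS against IGF-NS (adjusted p = 0.00051). The fall in PDGF-NS was not called without PDGF-NS library 1, PDGF-NS library 3 or control library 1 (adjusted p = 0.051 to 0.064). Epha3, a related receptor just under the limit of 1 FPKM, had 0.245, 0.404 and 0.755 FPKM in PDGF-NS, 1.69, 2.04 and 1.74 in IGF-NS and 0.498, 0.326 and 0.377 in control libraries. It is given without a test.

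Epha2 (ENSRNOG00000009222), the receptor that A ephrins such as ephrin-A1 engage, fell in both sets. It had 4.91, 4.37 and 4.66 FPKM in PDGF-NS, 2.52, 3.6 and 5.05 in IGF-NS and 9.09, 7.73 and 10.8 in control libraries. Every treated library lay under every control library. In log2 terms the difference from control was −0.84 ± 0.20 in PDGF-NS (limma adjusted p = 0.011) and −1.14 ± 0.20 in IGF-NS (adjusted p = 0.0035), and 0.29 ± 0.20 between the treated sets (adjusted p = 0.39). Ephb4 and Ephb3 were at higher FPKM than these A-type receptor genes. Ephb4, the main receptor of ephrin-B2 in veins, had 29.1 ± 1.79, 31.8 ± 9.58 and 29.4 ± 7.41 FPKM in PDGF-NS, IGF-NS and control libraries and was called in none of the comparisons. Ephb3 had 12 ± 2.16, 20.2 ± 4.16 and 18.7 ± 4.61 FPKM, and it was called between the treated sets alone (−0.70 ± 0.21, adjusted p = 0.047). That call ended without any 1 of 7 libraries (each of PDGF-NS, IGF-NS 1 and 3, control 2 and 3; adjusted p = 0.054 to 0.15), with a replicate block (0.082), with no filter on low values (0.074) and with no trend in the variance prior (0.054). In PDGF-NS against control Ephb3 lay at −0.59 (adjusted p = 0.056) and was called lower without IGF-NS library 2 (0.041), after median ratio scaling (0.021), quantile normalization (0.02) or rescaling to a common sum (0.022), and with a filter at 5 FPKM (0.048).

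Among the A ephrins, Efna1 (ENSRNOG00000020573) had 61.5, 37.2 and 48 FPKM in PDGF-NS, 21.9, 21.7 and 23.8 in IGF-NS and 18.4, 19.4 and 17.9 in control libraries. Its lowest PDGF-NS library stood above all libraries of the other sets. Its log2 fold change was 1.32 ± 0.17 in PDGF-NS against control (limma adjusted p = 0.00027) and 1.06 ± 0.17 in PDGF-NS against IGF-NS (adjusted p = 0.002), and 0.26 ± 0.17 in IGF-NS against control (adjusted p = 0.28). Efna4 (ENSRNOG00000020588) had 23.6, 16.5 and 19 FPKM in PDGF-NS, 41.4, 24.3 and 38.8 in IGF-NS and 19, 14 and 12.3 in control libraries, so IGF-NS was the separate set. It rose by 1.14 ± 0.23 in IGF-NS against control (adjusted p = 0.0061), and PDGF-NS against control gave 0.37 ± 0.23 (adjusted p = 0.24). The difference between PDGF-NS and IGF-NS, −0.77 ± 0.23 (adjusted p = 0.046), was lost without any 1 of 6 libraries (each of PDGF-NS, IGF-NS 1 and 3, control 2; adjusted p = 0.052 to 0.16), with no filter on low values (0.074) and with no trend in the variance prior (0.053). Summed over the A ephrins, the level was 77.6 ± 16.4 FPKM in PDGF-NS, 67.6 ± 10.4 in IGF-NS and 39.6 ± 1.83 in control libraries. Efna1 made up 62.6 ± 2.71% of that sum in PDGF-NS, 33.7 ± 4.37% in IGF-NS and 47 ± 3.73% in control libraries.

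The other A ephrins were low. Efna5 had 5.79 ± 1.5, 5.39 ± 2.07 and 3.07 ± 2.93 FPKM in PDGF-NS, IGF-NS and control libraries, and control library 3, at 6.44 FPKM, stood apart from control libraries 1 and 2, at 1.59 and 1.18. It was called in neither comparison with control, but was called higher without control library 3 in PDGF-NS (log2 1.49, adjusted p = 0.0081) and in IGF-NS (1.37, adjusted p = 0.018). Efna2 had 1.4 ± 0.416, 2.89 ± 1.26 and 1.77 ± 0.282 FPKM and Efna3 had 1.83 ± 0.651, 1.95 ± 0.414 and 1.08 ± 0.458 FPKM, with no call for either as deposited. Efna2 was called lower in PDGF-NS than in IGF-NS after rescaling to a common sum (−0.75, adjusted p = 0.046). In the rat RefSeq annotation (GRCr8) Efna1, Efna3 and Efna4 are consecutive protein-coding genes on chromosome 2.

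Promoters are shown for the gene with the largest fall, Slit3, and for Efnb2, the ephrin called in opposite directions. They are also shown for the ephrins Efna1 and Efna4, which stand on either side of Efna3. Efna1 rose in PDGF-NS and Efna4 in IGF-NS. Each sequence runs 5′ to 3′ on the strand of the gene, covers 300 bases that end 50 bases after the annotated start, and comes from RefSeq, build GRCr8. They are Slit3 (chr10:20075679-20075978, plus strand), Efnb2 (chr16:87484965-87485264, plus strand), Efna1 (chr2:176986772-176987071, minus strand) and Efna4 (chr2:177050664-177050963, minus strand). Capitals mark the GC box GGGCGG, the letters bound by SP1 family factors, on either strand.
Slit3: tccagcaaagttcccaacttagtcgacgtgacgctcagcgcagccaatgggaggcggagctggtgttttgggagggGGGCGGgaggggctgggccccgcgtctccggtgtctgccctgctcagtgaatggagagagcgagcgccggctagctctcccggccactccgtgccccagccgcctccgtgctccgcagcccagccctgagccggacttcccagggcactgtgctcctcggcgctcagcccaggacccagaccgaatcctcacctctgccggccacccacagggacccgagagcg
Efnb2: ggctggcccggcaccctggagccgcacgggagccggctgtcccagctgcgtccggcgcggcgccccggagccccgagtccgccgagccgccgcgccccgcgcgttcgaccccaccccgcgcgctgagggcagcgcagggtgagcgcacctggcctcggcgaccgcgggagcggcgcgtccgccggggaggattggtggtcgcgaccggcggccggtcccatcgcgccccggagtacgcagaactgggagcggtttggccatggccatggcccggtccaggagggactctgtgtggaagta
Efna1: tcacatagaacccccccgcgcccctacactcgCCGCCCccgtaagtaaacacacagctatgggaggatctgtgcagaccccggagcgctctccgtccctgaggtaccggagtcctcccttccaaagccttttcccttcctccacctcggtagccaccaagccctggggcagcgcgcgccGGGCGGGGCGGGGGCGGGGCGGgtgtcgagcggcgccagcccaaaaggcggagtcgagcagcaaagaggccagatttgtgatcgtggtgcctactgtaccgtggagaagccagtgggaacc
Efna4: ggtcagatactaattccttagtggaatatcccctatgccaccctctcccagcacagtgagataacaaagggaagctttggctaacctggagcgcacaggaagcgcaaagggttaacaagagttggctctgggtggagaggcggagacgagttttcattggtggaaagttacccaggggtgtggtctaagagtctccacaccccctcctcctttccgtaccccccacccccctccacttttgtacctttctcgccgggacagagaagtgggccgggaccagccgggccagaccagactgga
The GC box stood 5 times in the Efna1 window, 4 of them in 1 run where matches overlap or adjoin, 1 time in that of Slit3, and not in those of Efnb2 and Efna4. Of the 40 members, 31 had a promoter in the table. The GC box was in 20 of these 31, or 64.5%, against 65.4% of the 7865 promoters of tested genes and 34.9% of all 27456 promoters of that length. AP-1 letters (TGANTCA) were in 0 of 31 (4.49% of promoters of tested genes), FOX letters (GTAAACA) in 1, that of Efna1 (2.17%), TEAD letters (GGAATG) in 3, those of Epha2, Ntn3 and Sema4f (11%), and the CArG box in 1, that of Sema3c (1.34%). Both strands were searched; a place that matches on both is counted as 1 match. The median GC content was 64.3% in the members' windows and 61.7% in those of tested genes.

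The semaphorins formed the largest family, with 14 of 20 matching genes tested. In PDGF-NS against control 4 rose, 1 fell and 9 did not pass. In IGF-NS against control 2 rose, 0 fell and 12 did not pass. Of all genes tested, 20.7% rose and 10.2% fell in PDGF-NS against control, and 17.4% rose and 7.48% fell in IGF-NS against control. Sema3a rose most in IGF-NS, Sema5a and Sema6a rose most in PDGF-NS, and Sema3d was lower in PDGF-NS than in either other set. The class 3 ligands that were abundant in control cells, Sema3f, Sema3d and Sema3c, were not called in IGF-NS against control.

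Sema3a (ENSRNOG00000023337), the founding repulsive class 3 semaphorin, had 3.07, 6.87 and 4.27 FPKM in PDGF-NS, 19.3, 14.6 and 12.6 in IGF-NS and 2.61, 2.13 and 1.83 in control libraries. The sets did not overlap, and IGF-NS stood far above. Sema3a was 7.09-fold higher in IGF-NS than in control by the ratio of means (log2 2.36 ± 0.24, limma adjusted p = 0.00018). It rose by 0.80 ± 0.24 in PDGF-NS against control (adjusted p = 0.031), and PDGF-NS against IGF-NS gave −1.56 ± 0.24 (adjusted p = 0.002). The call in PDGF-NS against control ended without PDGF-NS library 2 or 3 or control library 2 or 3 (adjusted p = 0.072 to 0.11) and also after quantile normalization (0.064) or rescaling to a common sum (0.057) and with no filter on low values (0.059). Sema3a made up 5.17 ± 1.77% of the summed FPKM of class 3 semaphorins in PDGF-NS, 10.2 ± 2.43% in IGF-NS and 1.74 ± 0.427% in control libraries.

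Sema3d (ENSRNOG00000007202), the RefSeq neighbour of Sema3a on chromosome 4 and a class 3 semaphorin expressed in the developing heart and vessels, had 15.9, 30.7 and 23.1 FPKM in PDGF-NS, 53.9, 43.9 and 52.6 in IGF-NS and 40.8, 33.9 and 39.5 in control libraries. Its log2 difference between PDGF-NS and IGF-NS was −1.12 ± 0.21 (limma adjusted p = 0.0049). PDGF-NS against control gave −0.73 ± 0.21 (adjusted p = 0.023), and this call ended without PDGF-NS library 1 or 3 or control library 1 or 3 (adjusted p = 0.058 to 0.062). IGF-NS against control gave 0.39 ± 0.21 (adjusted p = 0.2).

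Sema3f, a ligand of neuropilin-2, had 34.6 ± 4.91, 46.3 ± 7.89 and 46.7 ± 2.67 FPKM in PDGF-NS, IGF-NS and control libraries. Its log2 fold change of −0.43 ± 0.15 in PDGF-NS against control missed the threshold (limma adjusted p = 0.053), and it was called lower under median ratio scaling (adjusted p = 0.02), quantile normalization (0.022), rescaling to a common sum (0.017), a filter at 5 FPKM (0.049), with only these 2 sets in the fit (0.046) and without PDGF-NS library 1 or IGF-NS library 3 (0.029 to 0.036). For Sema3b, at a lower level, the values were 3.31 ± 0.953, 5.15 ± 1.88 and 5.67 ± 0.719 FPKM. It lay at −0.65 in PDGF-NS against control (adjusted p = 0.057), and it was called lower after median ratio scaling (0.033), quantile normalization (0.026) or rescaling to a common sum (0.032) and with only these 2 sets in the fit (0.039). It was also called lower without PDGF-NS library 1 or IGF-NS library 3 (adjusted p = 0.025 to 0.04). Sema3c had 23.1 ± 2.92, 34.3 ± 2.38 and 32.9 ± 9.14 FPKM. Control library 1, at 22.5 FPKM, lay under control libraries 2 and 3, at 36.7 and 39.6, and without it Sema3c was called lower in PDGF-NS against control (−0.71, adjusted p = 0.0054) and against IGF-NS (adjusted p = 0.014). Rescaling to a common sum also made Sema3c called lower against control (0.049), and Sema3c and Sema3f called lower against IGF-NS (0.04 and 0.033). Sema3e had 1.77 ± 0.502, 1.27 ± 0.592 and 1.61 ± 0.142 FPKM with no call. The class 3 genes together summed to 90.8 ± 8.34 FPKM in PDGF-NS, 153 ± 9.92 in IGF-NS and 127 ± 8.12 in control libraries.

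Of the membrane-bound semaphorins, Sema5a (ENSRNOG00000011977), which carries thrombospondin repeats, had 8.87, 20.8 and 17 FPKM in PDGF-NS, 2.26, 4.41 and 5.64 in IGF-NS and 3.31, 4.45 and 5.71 in control libraries. PDGF-NS was the separate set, and library 1 was its lowest. Its log2 fold change was 1.54 ± 0.33 in PDGF-NS against control (limma adjusted p = 0.0061), 1.68 ± 0.33 in PDGF-NS against IGF-NS (adjusted p = 0.007) and −0.14 ± 0.33 in IGF-NS against control (adjusted p = 0.79). Sema6a (ENSRNOG00000004033), a ligand of A-type plexins, had 3.48, 3.75 and 5.53 FPKM in PDGF-NS, 1.51, 1.98 and 2.45 in IGF-NS and 0.262, 0.893 and 0.912 in control libraries. All 3 sets were separate. It rose by 1.64 ± 0.23 in PDGF-NS (adjusted p = 0.0006) and by 0.83 ± 0.23 in IGF-NS (adjusted p = 0.027). The call in IGF-NS ended without IGF-NS library 2 or 3 or control library 1 (0.067 to 0.073). Between PDGF-NS and IGF-NS it was 0.81 ± 0.23 (adjusted p = 0.041), a call that ended without any 1 of 6 libraries (each of PDGF-NS, IGF-NS 1 and 2, control 2; 0.054 to 0.17) and with a pseudocount of 0.1 (0.13) or 0.5 (0.063), no filter on low values (0.055) or rescaling to a common sum (0.053). Sema6d, of the same class but just under the limit of 1 FPKM, had 0.872, 0.997 and 0.869 FPKM in PDGF-NS, 2.72, 1.27 and 1.12 in IGF-NS and 0.282, 0.153 and 0.236 in control libraries, and is given without a test.

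Sema4b (ENSRNOG00000025167) had 16, 21.6 and 20.5 FPKM in PDGF-NS, 14.9, 10.6 and 14.5 in IGF-NS and 10.6, 7.39 and 9.08 in control libraries. It rose by 1.02 ± 0.18 in PDGF-NS against control (limma adjusted p = 0.0022). In IGF-NS against control its log2 fold change was 0.51 ± 0.18 (adjusted p = 0.066), which was called without IGF-NS library 2 or control library 1 (0.038 to 0.045). The remaining class 4 genes were lower and called in none of the comparisons: their means in any set were 5.37 to 7.65 FPKM for Sema4g, 2.87 to 4.01 for Sema4c, 2.35 to 4.01 for Sema4a and 1.16 to 1.51 for Sema4f. Sema4c was called higher in IGF-NS without control library 1 (0.61, adjusted p = 0.043). Sema4g was called lower in IGF-NS under quantile normalization (−0.59, adjusted p = 0.047). Sema7a, the semaphorin with a lipid anchor, had 6.99 ± 1.63, 7.6 ± 0.49 and 8.11 ± 0.335 FPKM in PDGF-NS, IGF-NS and control libraries, with no call.

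Among semaphorin receptors, the A plexin genes Plxna4a and Plxna3 rose in IGF-NS against control, and the neuropilins moved in opposite directions, Nrp1 higher and Nrp2 lower. In PDGF-NS against control 0 of 5 plexins and 0 of 2 neuropilins were called by limma at an adjusted p under 0.05, and 2 of these 7, Plxna3 and Plxnb1, had an unadjusted p under 0.05. Of all genes tested, 31.0% were called in that comparison. Plexins of the A type pair with neuropilins to read class 3 semaphorins, Sema3a among them, and bind class 6 semaphorins without one.

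Plxna4a (ENSRNOG00000013072; Plxna4 in RefSeq) had 2.3, 6.45 and 3.93 FPKM in PDGF-NS, 11.8, 10.7 and 11.1 in IGF-NS and 3.83, 1.91 and 1.75 in control libraries. The IGF-NS libraries lay close together and stood above all the rest. The log2 fold change was 1.85 ± 0.29 in IGF-NS against control (limma adjusted p = 0.002, 4.5-fold by the ratio of means) and −1.30 ± 0.29 in PDGF-NS against IGF-NS (adjusted p = 0.014). The difference between the treated sets was not called without PDGF-NS library 3 or IGF-NS library 1 (0.051 to 0.052). PDGF-NS against control gave 0.55 ± 0.29 (adjusted p = 0.18). Plxna3 (ENSRNOG00000037248) had 4.49, 6.55 and 5.27 FPKM in PDGF-NS, 9.57, 5.86 and 8.11 in IGF-NS and 4.6, 3.31 and 2.25 in control libraries. It rose by 1.02 ± 0.23 in IGF-NS against control (adjusted p = 0.011). In PDGF-NS against control it lay at 0.58 ± 0.23 (adjusted p = 0.087) and was called without control library 1 (0.034).

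Nrp2 (ENSRNOG00000031232), the neuropilin that binds Sema3f and VEGF-C, had 74, 77.4 and 74 FPKM in PDGF-NS, 43.4, 35.2 and 53.7 in IGF-NS and 83, 80.1 and 68.8 in control libraries. IGF-NS was the low set, and PDGF-NS and control overlapped. The log2 fold change was −0.81 ± 0.15 in IGF-NS against control (limma adjusted p = 0.0048), 0.78 ± 0.15 in PDGF-NS against IGF-NS (adjusted p = 0.0073) and −0.04 ± 0.15 in PDGF-NS against control (adjusted p = 0.88). Nrp1 (ENSRNOG00000010744), the neuropilin that binds Sema3a and VEGF-A, had 18.4, 31.2 and 25.5 FPKM in PDGF-NS, 27.8, 28.3 and 38.7 in IGF-NS and 20.8, 19.6 and 18.6 in control libraries. Its rise of 0.64 ± 0.19 in IGF-NS (adjusted p = 0.038) was called with the fewest of the alternatives among the 12 calls of that comparison. It ended without any 1 of 7 libraries (PDGF-NS 3, each of IGF-NS and each control; 0.056 to 0.097), after median ratio scaling (0.086) or quantile normalization (0.067), with no filter on low values (0.059) and with a replicate block (0.052). Nrp1 made up 24.7 ± 4.47% of the summed neuropilin FPKM in PDGF-NS, 41.8 ± 2.77% in IGF-NS and 20.3 ± 0.854% in control libraries.

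Plxnb2 and Plxnd1 were the most abundant plexin genes. Plxnb2, a receptor of class 4 semaphorins, was called in none of the comparisons (−0.23 in PDGF-NS and −0.16 in IGF-NS against control). Plxnd1, the receptor of Sema3e in vessels, had 24.7 ± 4.58, 40 ± 8.37 and 31.1 ± 9.19 FPKM in PDGF-NS, IGF-NS and control libraries. The difference of −0.67 ± 0.23 between PDGF-NS and IGF-NS was not called (limma adjusted p = 0.075), but was without control library 1 (0.035), with only these 2 sets in the fit (0.048) and after rescaling to a common sum (0.028). Plxnb1 had 1.53, 1.57 and 1.29 FPKM in PDGF-NS, 3.23, 2.54 and 4.07 in IGF-NS and 2.71, 2.28 and 2.32 in control libraries, and it was lower in PDGF-NS than in IGF-NS (−0.79 ± 0.18, adjusted p = 0.013), except without PDGF-NS library 3 (0.062). Against control it lay at −0.48 in PDGF-NS (adjusted p = 0.061), with a lower call without IGF-NS library 2 or 3 (0.047 to 0.049), after median ratio scaling (0.03), quantile normalization (0.018) or rescaling to a common sum (0.031) and with no trend in the variance prior (0.037). Plxna2 and Plxnc1 reached at most 0.229 and 0.0589 FPKM in any library.

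**Figure D4:**
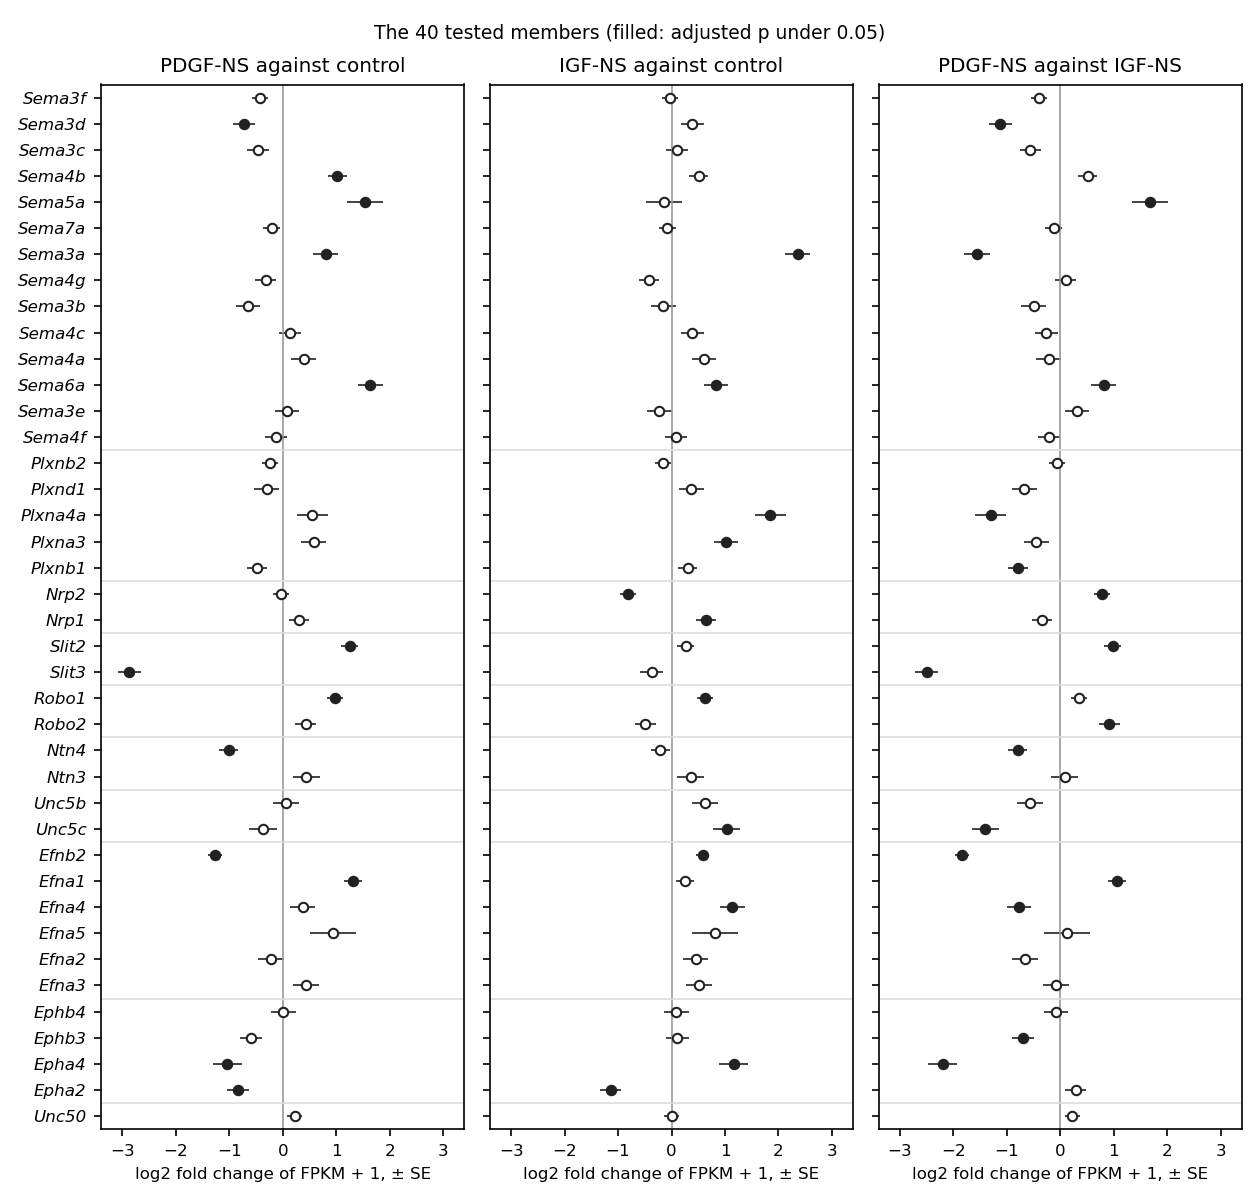
Log2 fold change of FPKM + 1 (horizontal axis, with its standard error as a bar) of the 40 tested members in the 3 comparisons, ordered by family from semaphorins at the top to Eph receptors and Unc50 at the bottom. Filled points passed an adjusted p under 0.05. Slit3 lies farthest to the left in both comparisons that include PDGF-NS, and Sema3a and Plxna4a lie farthest to the right in IGF-NS against control.

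Among netrins and their receptors, Ntn4 fell in PDGF-NS and Unc5c rose in IGF-NS. Ntn4 (ENSRNOG00000005573), a laminin-binding netrin of basement membranes, had 1.76, 1.14 and 1.23 FPKM in PDGF-NS, 3.75, 2.49 and 3.22 in IGF-NS and 4.09, 3.42 and 3.78 in control libraries. PDGF-NS was separate from both other sets. The log2 fold change was −1.01 ± 0.18 in PDGF-NS against control (limma adjusted p = 0.0021) and −0.80 ± 0.18 in PDGF-NS against IGF-NS (adjusted p = 0.013). The difference between the treated sets was not called without PDGF-NS library 2 or 3 or IGF-NS library 1 (0.053 to 0.058). Ntn3 had 2.53 ± 0.186, 2.43 ± 1.01 and 1.64 ± 0.609 FPKM with no call. Ntn1, the classical netrin, had a mean of 0.308 FPKM over the 9 libraries and was under the limit.

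Unc5c (ENSRNOG00000029071), a repulsive netrin receptor, had 5.66, 5.82 and 5.28 FPKM in PDGF-NS, 18.3, 12.7 and 18.9 in IGF-NS and 12.4, 5.64 and 5.86 in control libraries. Control library 1 lay near the lowest IGF-NS library, and the other 2 controls lay at the PDGF-NS level. The log2 fold change was 1.03 ± 0.26 in IGF-NS against control (limma adjusted p = 0.017) and −1.40 ± 0.26 in PDGF-NS against IGF-NS (adjusted p = 0.0049). The rise over control was not called without IGF-NS library 1 or control library 2 or 3 (0.058 to 0.063), and with only these 2 sets in the fit (0.052). Unc5b, the abundant Unc5 receptor, had 143, 209 and 165 FPKM in PDGF-NS, 276, 196 and 300 in IGF-NS and 221, 167 and 118 in control libraries, with overlap between all sets. It was not called in IGF-NS against control (0.63 ± 0.24, adjusted p = 0.087), except without control library 1 (0.84, adjusted p = 0.031). The netrin receptor gene Dcc was listed at 0 in every library, and Neo1, which encodes neogenin, had means of 42.6, 64.9 and 53.5 FPKM in PDGF-NS, IGF-NS and control libraries, with a call between the treated sets (−0.60, adjusted p = 0.022) that ended without PDGF-NS library 1 or 3 or IGF-NS library 2 or 3 (0.052 to 0.1).

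Further genes of guidance signalling were taken from 3 lists. Of 47 tested effectors inside the cell, 6 rose, 12 fell and 29 did not pass in PDGF-NS against control, and 8 rose, 9 fell and 30 did not pass in IGF-NS against control. That is 38.3% and 36.2% of the 47, against 31.0% and 24.9% of all genes tested. The 8 became 4 with median ratio scaling and 5 without IGF-NS library 3 or control library 2. Over all genes tested, 1976 higher calls became 1136 with median ratio scaling, 1960 without IGF-NS library 3 and 1573 without control library 2. Median log2 fold changes of the 47 were −0.15 and 0.02, against 0.13 and 0.15 for all genes. In IGF-NS Srgap3, a GTPase-activating protein named for its binding to Robo, rose by 1.65, while Rras, a GTPase that plexins inactivate, fell by 1.54 on the log2 scale, the kinase Rock2 by 1.25 and Mical2, an actin-oxidizing enzyme of the plexin-binding MICAL family, by 1.19. Rras also fell in PDGF-NS against control (−0.81, adjusted p = 0.0017). In PDGF-NS Rasa1, a Ras GTPase-activating protein that binds EphB receptors, rose by 1.27, and Chn1, the chimaerin downstream of EphA4, fell by 1.12. Chn1 was also called lower in IGF-NS against control (−0.79, adjusted p = 0.016), a call that ended without IGF-NS library 1 or control library 2 or 3. Between PDGF-NS and IGF-NS 4 were higher and 7 lower, or 23.4% of the 47 against 15.9% of all genes. Mical2 was among the higher ones (log2 1.15, limma adjusted p = 0.00019) and Srgap3 among the lower ones (−1.17, adjusted p = 0.0022).

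Of 25 tested genes of other guidance ligands, receptors and co-receptors, 5 rose, 6 fell and 14 did not pass in PDGF-NS against control, 7 rose, 6 fell and 12 did not pass in IGF-NS against control, and 2 were higher and 10 lower in PDGF-NS than in IGF-NS. These are 44%, 52% and 48% of the 25, against 31.0%, 24.9% and 15.9% of all genes tested. The 5 that rose in PDGF-NS became 3 with no filter on low values. Of the 2 higher in PDGF-NS than in IGF-NS, 0 were left without PDGF-NS library 3 or IGF-NS library 2 and 1 without PDGF-NS library 2 or IGF-NS library 1. The 6 that fell in PDGF-NS against control became 12 with median ratio scaling, 11 when quantiles were equalized and 11 after rescaling to a common sum. Over all genes tested, 1166 lower calls became 1680, 1744 and 1680 in the same order. The neurotrophin receptor genes Ntrk2 and Ntrk3 fell in PDGF-NS, to means of 0.732 and 7.83 FPKM against 6.99 and 28.4 in control libraries (log2 −2.18 and −1.75, limma adjusted p = 0.00017 and 6e-05). Ntrk3 rose in IGF-NS against control (0.74, adjusted p = 0.011). The proteoglycan gene Sdc1 fell by 1.43 in PDGF-NS against control and was not called in IGF-NS against control (0.03, adjusted p = 0.94). In IGF-NS Ncam1, a neural cell adhesion molecule, rose by 1.85, and the hedgehog co-receptors Cdon and Boc, which guide commissural axons, rose by 1.30 and 1.26. Ncam1 and Cdon also rose in PDGF-NS against control (0.91, adjusted p = 0.0035, and 0.73, adjusted p = 0.0047). Among the 6 that fell in IGF-NS against control were Itga1 (−1.36, adjusted p = 0.00041) and Sdc4 (−1.25, adjusted p = 0.0013). Itga1 and Met were among the 6 that fell in PDGF-NS against control (−1.26, adjusted p = 0.00031, and −1.20, adjusted p = 0.0014). Met also fell in IGF-NS against control (−0.82, adjusted p = 0.014). Ptprd, a receptor phosphatase, fell in PDGF-NS (−0.96, adjusted p = 6e-04) and rose in IGF-NS (1.02, adjusted p = 8e-04) against control. Boc and Ptprd were lower in PDGF-NS than in IGF-NS (log2 −1.51 for Boc and −1.98 for Ptprd). Of 5 tested VEGF genes, which share neuropilins with semaphorins, 2 rose and 2 fell in PDGF-NS against control, and 1 rose and 2 fell in IGF-NS against control. These are 80% and 60% of the 5, against 31.0% and 24.9% of all genes tested. The 2 that rose in PDGF-NS became 1 without PDGF-NS library 3 or control library 3, after rescaling to a common sum and with a filter at 5 FPKM, and the 2 that fell in IGF-NS became 1 without IGF-NS library 1 or control library 1. The 1 that rose in IGF-NS, Pgf, did not pass the filter at 5 FPKM. Pgf, placental growth factor, rose in PDGF-NS (2.06) and in IGF-NS (1.13). Flt1, a VEGF receptor, averaged 12.2, 3.86 and 23.2 FPKM in PDGF-NS, IGF-NS and control libraries and fell by 2.29 in IGF-NS (adjusted p = 9.9e-05) and by 0.88 in PDGF-NS (adjusted p = 0.012). Between PDGF-NS and IGF-NS 2 VEGF genes were higher in PDGF-NS and 0 lower, or 40% of the 5 against 15.9% of all genes. They were Flt1 (log2 1.41, limma adjusted p = 0.0017) and Pgf (0.93, adjusted p = 0.033). The Pgf call held under 11 of the 18 alternatives that could be computed. Vegfa was called in none of the comparisons.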

How the data were processed

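The deposited FPKM values were made by the authors with GSNAP and Cufflinks, per the submitters' processing notes, from Lexogen SENSE mRNA libraries (per the labels' protocols). For the tools, the build and the annotation, versions are not given in the sources consulted, and reads shared between paralogs may have been split by Cufflinks. Since FPKM is not a count, count models and counting intervals were not used, and depth in reads is unknown. The value 999999999 stood in 10 cells of 4 genes and was read as a failed estimate; these genes and 2 duplicate rows of zeros were removed. An exact 0 can be a failed estimate.

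Libraries were matched to sets by the column that each sample record names. limma 3.58.1 (R 4.3.3) was fitted to log2(FPKM + 1) with a variance trend, over the 11376 genes averaging 1 FPKM or more, with all 9 libraries and the set as the only term. Tests were two-sided, and p-values were adjusted by Benjamini-Hochberg within each of 3 comparisons. The procedure was tested on simulated data. Named genes were the tested members, with the value of each library for those called with a log2 fold change of at least 1 in size and for further members where a statement rests on them. Of each list some of the called genes were named, not all. The members and lists were chosen with earlier results of these data known. The 19 alternatives covered the pseudocount, filter, scaling, fit, a replicate block and leaving out each library. For the 3 wider lists they were added after seeing the data. One marker of the neural list is not reported here.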

Additional observations from a re-analysis of the deposited data

Results flagged for a closer look

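Efnb2 and Epha4 stood out because each was called lower than control in the PDGF-NS libraries and higher than control in the IGF-NS libraries, and the difference between the treated sets, tested directly in PDGF-NS against IGF-NS, was itself past the threshold. It was −1.84 on the log2(FPKM + 1) scale for Efnb2 (limma adjusted p = 2.5e-05) and −2.20 for Epha4 (adjusted p = 0.00051). In this fit the difference equals the value of PDGF-NS against control minus that of IGF-NS against control. Both genes were also picked by passing each comparison, so the difference adds no separate support. All 3 PDGF-NS libraries were below all 3 IGF-NS libraries for both genes. The direction against the shared controls rests on calls that were lost under some alternatives, median ratio scaling for Efnb2 in IGF-NS (adjusted p = 0.074) and leaving out 1 of 3 libraries for Epha4 in PDGF-NS (adjusted p = 0.051 to 0.064). The difference between the treated sets was called under all 19 alternatives for both genes, with log2 values of −1.97 to −1.76 for Efnb2 and −2.53 to −1.93 for Epha4.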

How the results depend on the processing

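No call of a member changed direction under the 19 alternatives. Under all of those that could be computed, 10 of 13 calls in PDGF-NS against control, 8 of 12 in IGF-NS against control and 10 of 17 between the treated sets held, and 8, 6 and 4 further members were called under at least 1. Members called lower in PDGF-NS against control numbered 6, but 10 under median ratio scaling, 10 under quantile normalization and 11 after rescaling to one common sum. Over all genes tested the lower calls moved as well, from 1166 to 1680, 1744 and 1680 under the same settings. Those called lower in IGF-NS against control numbered 2, but 4 under quantile normalization, where the lower calls over all genes went from 851 to 1173. Leaving out single libraries gave 6 to 8 members higher and 4 to 9 lower in PDGF-NS against control, 8 to 11 and 2 to 2 in IGF-NS against control, and 4 to 6 and 6 to 13 between the treated sets. In the last, 6 were lower without PDGF-NS library 3 and 7 without IGF-NS library 1, against 11. Lower calls over all genes in these 2 settings numbered 466 and 551, against 859. With a replicate block, 7 members were higher and 6 lower in PDGF-NS against control, 9 and 2 in IGF-NS against control, and 6 and 10 between the treated sets. All genes gave 2149 and 1072, 1699 and 758, and 822 and 708 with that block. Same-numbered libraries of different sets had correlated deviations of −0.28 to 0.25, so the numbers are not taken to pair libraries. Differently numbered libraries reached −0.51 (IGF-NS library 2 with control library 1) and 0.41 (IGF-NS library 2 with control library 3). Depth is unknown in reads, and the shallower control libraries limit what can be said of genes near 1 FPKM.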
